A study of Oncorhynchus mykiss with 9 samples.

Results

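The transcripts described here were chosen by the symbols of proteins that the liver secretes into blood plasma. They were measured in head kidney tissue of the rainbow trout, Oncorhynchus mykiss. Members were the rows of the deposited gene table whose symbol was apoa1, apoa2, apoa4, apob, apoh, ambp, hp, alb, ttr or tf, alone or with a copy suffix. The rule named 10 genes, 8 of which had rows, giving 19 rows of the 44219 genes in the table. No row carried the symbol apoa1 or apoa4. By gene there were 4 rows of apob, 4 of hp, 3 of ambp, 2 of apoh, 2 of alb (both with the symbol alb1), 2 of tf (tf and tfa), and 1 each of apoa2 and ttr. Rows of the same symbol are numbered below in the order of the table.

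The fish were full siblings of about 130 g kept at 12 °C, and 9 libraries were made from head kidney, 3 per group. The control had dissolved oxygen at 8.5 mg/L and was labelled 0 h, moderate hypoxia was 4.5 mg/L for 12 h, and severe hypoxia was 3.0 mg/L for 12 h. Nitrogen was used to lower the oxygen, and the labels name no allele or drug. Oxygen level and sampling time therefore both separate the hypoxia groups from the control, and the labels do not say whether each library came from 1 fish. The question addressed is how gene expression in this organ varies with oxygen. The deposited table holds 1 mean estimated count and 1 FPKM value (fragments per kilobase of gene and per unit of sequencing depth) per gene and group. The spread between libraries is thus unknown, overlap between groups cannot be judged, and no p-value is given. A difference carried by 1 library could not be told apart from one shared by all 3.

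Plasma proteins form a family by destination rather than by sequence. Apolipoproteins pack and steer lipid particles, albumin and transthyretin carry small molecules, transferrin carries iron, and haptoglobin captures free haemoglobin. In vertebrates hepatocytes make most of them, and haptoglobin is also an acute phase protein in mammals. The head kidney is the fish's main blood-forming organ and also holds the steroid-making and catecholamine-making cells of the stress response.

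The libraries held on average 15246482 counts in control, 15301518 in moderate and 14700244 in severe hypoxia. Before ratios were taken, TMM normalisation (trimmed mean of M values, which assumes most genes alike) put size factors of 1.62 on moderate and 1.22 on severe hypoxia, with the control at 1. With counts divided by library totals only, the median log2 ratio of all genes was 0.69 for moderate against control, 0.34 for severe against control and -0.34 for severe against moderate. Defining head kidney genes were present: star, the cholesterol transporter of steroid-making cells, was at 2405, 1875 and 4536 counts in control, moderate and severe hypoxia, and mpo, the myeloperoxidase of granulocytes, was at 95226, 89768 and 72450. Counts of red blood cell, muscle and pancreas transcripts also differed between the groups and are given with the gene lists below. Counts are group means per library, and counting intervals (95%, exact) cover counting error only. In whole organs, fewer cells of a type and less RNA per cell cannot be told apart.

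Most rows of liver plasma protein transcripts were far lower in moderate hypoxia than in the control and near the control in severe hypoxia. Counts were lowest in moderate hypoxia in 14 of the 19 rows. The other rows were AMBP, tf, an APOB row, the row Ambp, which was at 0 counts in every group, and an HP row at 0 counts in the control. The share of all genes lowest in moderate hypoxia was not computed, and 7 of the 19 rows had at most 9 counts in any group. Summed over all 19 rows, the members were at 3265 counts in control, 2646 in moderate and 3951 in severe hypoxia. The full sum was 1.996-fold lower in moderate hypoxia than in the control (counting interval 1.938 to 2.057). On library totals its log2 ratio was -0.31. The row AMBP held 66.75% of the full sum in the control and 95.06% in moderate hypoxia. Without the rows AMBP and tf, which are described last, the members summed to 1064 counts in control, 58.7 in moderate and 1164 in severe hypoxia. That sum was 29.4-fold lower in moderate hypoxia than in the control (counting interval 25.2 to 34.4) and 0.897 times the control in severe hypoxia (0.854 to 0.941). On library totals the severe sum lay above the control, at a log2 ratio of 0.18 in place of -0.16. This sum leaves out 2 rows chosen after their values were seen.

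**Figure D1:**
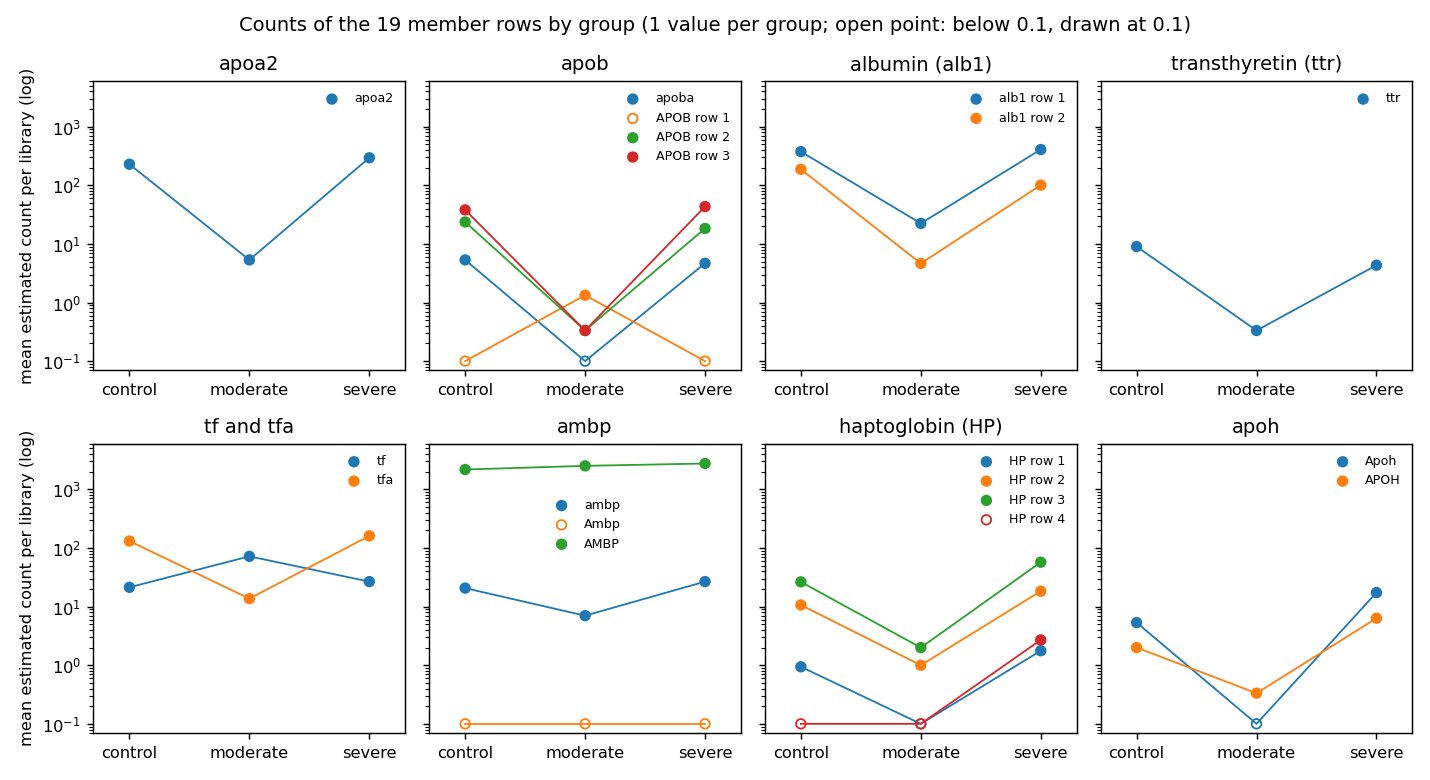
Mean estimated count per library (log axis) of each member row in control, moderate and severe hypoxia, with 1 panel per gene and 1 deposited value per point; open points mark values under 0.1, drawn at 0.1. The lines of apoa2, albumin and ttr dip in moderate hypoxia, apoa2 from 229 to 5.33 counts, while AMBP stays between 2180 and 2760 and tf is highest in moderate hypoxia at 72 counts.

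Among the lipid carriers, apoa2 encodes a small apolipoprotein of high-density lipoprotein. It was at 229 counts in control, 5.33 in moderate and 294 in severe hypoxia, or 17.2, 0.397 and 22.8 FPKM. The control and severe groups were thus both high and moderate hypoxia low. The scaled count was 69.3-fold lower in moderate hypoxia than in the control (counting interval 42.4 to 122), 1.06 times the control in severe hypoxia (0.954 to 1.17), and 73.2-fold higher in severe than in moderate hypoxia (44.8 to 129). By FPKM the apoa2 row lay above 89.5% of the 28711 genes analysed (those with at least 10 counts in a group) in the control, above 9.41% in moderate and above 91.2% in severe hypoxia.

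The apob gene encodes the large structural protein of low-density and very-low-density lipoproteins. Its rows had low counts despite long transcripts: the lengths derived from count and FPKM were 11760 bases for APOB row 2 and 10453 for APOB row 3. APOB row 3 was at 38 counts in control, 0.333 in moderate and 43.3 in severe hypoxia, and APOB row 2 at 23.7, 0.333 and 18.3. The row apoba was at 5.33, 0 and 4.67 counts. In these 3 rows moderate hypoxia was the low group, with at most 1 count over its 3 libraries. APOB row 1 went the other way, at 0, 1.33 and 0 counts, all near the lower limit of counting. Summed over the 4 rows, apob was at 67, 2.00 and 66.3 counts, 54.2-fold lower in moderate hypoxia than in the control (counting interval 24.5 to 149) and 0.812 times the control in severe hypoxia (0.664 to 0.992), a log2 ratio of -0.30 that was 0.04 on library totals. On the FPKM scale the summed level was 0.397 in the control and 0.411 in severe hypoxia, well under that of apoa2.

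The apoh gene encodes beta-2-glycoprotein I, which binds phospholipid surfaces. The row Apoh was at 5.33 counts in control, 0 in moderate and 17.3 in severe hypoxia, and the row APOH at 2.00, 0.333 and 6.33. Severe hypoxia was the high group in both rows. Summed, apoh was 2.65-fold higher in severe hypoxia than in the control (counting interval 1.62 to 4.48), on 23.7 and 7.33 counts.

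Because the symbol apoa1 was absent, rows with the related symbols apoa-i-1 and apoa-i-2 were read beside the members; they fall outside the rule and were chosen after seeing the table. Apolipoprotein A-I is the main protein of high-density lipoprotein. The apoa-i-1 row was at 223 counts in control, 26.7 in moderate and 277 in severe hypoxia. Against the control, its log2 ratio was -3.76 (counting interval -4.11 to -3.42) for moderate and 0.03 (-0.12 to 0.18) for severe hypoxia. It had the same low group as apoa2, with a smaller fall in moderate hypoxia. The apoa-i-2 row was at 4.00, 5.67 and 1.67 counts.

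Of the carriers of small molecules and iron, albumin had the most counts after AMBP in the control and severe hypoxia. Row 1 of alb1 was at 375 counts in control, 22.4 in moderate and 407 in severe hypoxia, and row 2 at 187, 4.64 and 100.5. Both rows were lowest in moderate hypoxia, at 27.1-fold below the control for row 1 (counting interval 21.2 to 35.3) and 65.3-fold for row 2 (38.4 to 120). In severe hypoxia they parted: row 1 was 0.89 times the control (0.821 to 0.967; above it on library totals, at a log2 ratio of 0.17) and row 2 was 0.44 times (0.381 to 0.506). Reads of near-identical copies can be split between rows, so the sum is the safer value: alb1 summed to 562, 27 and 508 counts, 33.7-fold lower in moderate hypoxia than in the control (27.0 to 42.7) and 0.74 times the control in severe hypoxia (0.690 to 0.794). On library totals the severe value was near the control, at a log2 ratio of -0.09. Per length, alb1 (14.8 FPKM in the control) was below apoa2 (17.2), although its count was higher.

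Transthyretin carries thyroid hormone and retinol-binding protein. Its single row, ttr, was at 9.00 counts in control, 0.333 in moderate and 4.33 in severe hypoxia. Both hypoxia groups were below the control, with wide counting intervals: 43.7-fold lower in moderate hypoxia (7.20 to 1789) and 0.395 times the control in severe hypoxia (0.187 to 0.792). The row did not reach 10 counts in any group.

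Transferrin, the iron carrier of plasma, was represented by tfa, described in the table as transferrin. It was at 131 counts in control, 13.7 in moderate and 161 in severe hypoxia. The scaled count was 15.5-fold lower in moderate hypoxia than in the control (counting interval 11.3 to 22) and 1.00 times the control in severe hypoxia (0.876 to 1.15). On library totals the severe value was above the control, at a log2 ratio of 0.34. Per length tfa was below apoa2 in every group, at 0.359 against 0.397 FPKM in moderate hypoxia. By count it was above apoa2 there, at 13.7 against 5.33. In every group tfa was above the row ambp and the sums of HP and apob, by count and by FPKM. By FPKM it was barely above ambp in moderate hypoxia (0.359 against 0.357) and HP in severe hypoxia (4.31 against 4.29).

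Haptoglobin binds haemoglobin released from broken red cells. HP row 3, the most abundant of the 4, was at 26.4 counts in control, 2.00 in moderate and 57.2 in severe hypoxia, and HP row 2 at 10.7, 1.00 and 18.3. HP row 1 was at 0.94, 0 and 1.77 counts and HP row 4 at 0, 0.003 and 2.70. Severe hypoxia held the highest count in each of the 4 rows. Summed, HP was at 38, 3.00 and 80 counts, 20.5-fold lower in moderate hypoxia than in the control (counting interval 10.4 to 46.0) and 1.73-fold higher in severe hypoxia (1.38 to 2.18). Against moderate hypoxia the severe sum was 35.4-fold higher (18.3 to 78.3). Globin transcripts, whose protein HP binds, took 13.0% of counts in control, 4.12% in moderate and 7.37% in severe hypoxia.

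The ambp gene encodes a precursor that is cleaved into alpha-1-microglobulin, a haem-binding carrier, and bikunin, a protease inhibitor. Its rows differed from each other. The lower-case row ambp, described in the table as starting with alpha-1-, was at 20.7 counts in control, 7.00 in moderate and 26.7 in severe hypoxia, 4.78-fold lower in moderate hypoxia than in the control (counting interval 2.87 to 8.25). The row AMBP was at 2180, 2516 and 2760 counts, or 81.6, 94.3 and 107 FPKM, above 97.4%, 97.7% and 97.8% of the genes analysed. Its log2 ratio for moderate against control was -0.49 (counting interval -0.54 to -0.44) on scaled counts and 0.20 on library totals, so its direction depended on the scaling. For severe against control it was 0.05 (0.01 to 0.10). The ratio of AMBP to the row ambp was thus not constant over the groups, and AMBP made up 66.5% of the members' summed FPKM in control, 94.7% in moderate and 68.2% in severe hypoxia. The symbol is the authors' assignment, and the gene description printed in the table ends after the word protein, so the row's identity as alpha-1-microglobulin was not checked.

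The row tf met the rule by its symbol, but its description began with tissue f, which is not the description of transferrin. RefSeq genes of the USDA_OmykA_1.1 assembly also hold tf and tfa as separate genes, with TF as a synonym of tfa. The tf row was at 21.3 counts in control, 72 in moderate and 26.7 in severe hypoxia. Of the 12 member rows with at least 10 counts in a group, it was the sole one above the control in moderate hypoxia on scaled counts, at a log2 ratio of 1.06 (counting interval 0.65 to 1.49); on library totals AMBP was above it too. In severe hypoxia it was at 0.04 (-0.46 to 0.53).

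Of the 19 rows, 12 reached 10 counts in a group. Those 12 include rows that entered through the control or severe group alone and so had to be lower in moderate hypoxia, and their counts are a description. In moderate hypoxia 10 of the 12 were at least 2-fold lower than in the control, against 14.1% of all genes analysed, and 1 was at least 2-fold higher, against 20.0%. Their median log2 ratio was -4.26, against 0.00 over all genes. In severe hypoxia 1 of the 12 was at least 2-fold lower (alb1 row 2; all genes 4.37%) and 1 higher (Apoh; all genes 13.7%), with a median of 0.04 against 0.00. The counting interval for severe against control held 0 in 6 of the 12 rows, lay above it in 3 and below it in 3. On library totals these counts were 4, 7 and 1. The matching shares over all genes were not computed, so these counts cannot be read as particular to the members. Severe against moderate hypoxia gave 10 of 12 at least 2-fold higher (all genes 9.02%) and 1 lower (tf; all genes 10.5%), with a median of 4.60 against 0.01. The 7 remaining rows had at most 9 counts in any group. With all members above the counting floor included, 13 of 16 rows were at least 2-fold lower in moderate hypoxia than in the control, with a median of -4.03. The share of all genes at that floor was not computed. Some of the added rows passed it in the control but not in moderate hypoxia, so they had to be lower there. The comparisons share groups, so they are not independent of each other.

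**Figure D2:**
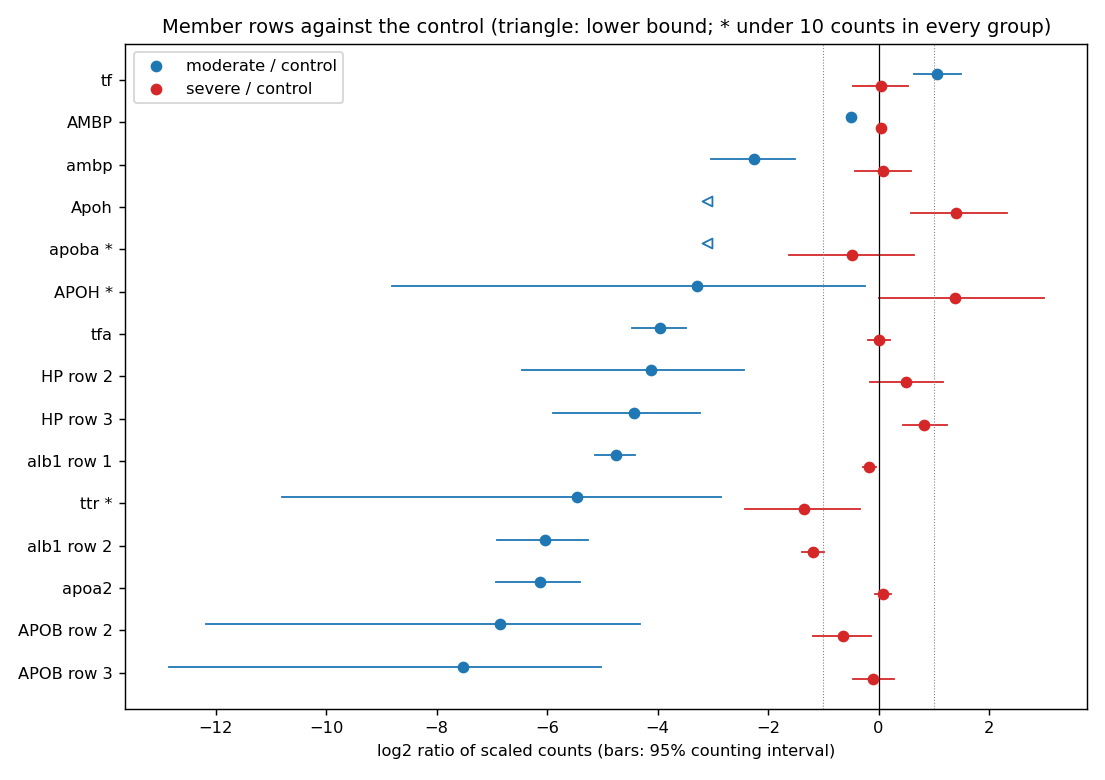
Log2 ratio of scaled counts against the control for the 15 member rows that have a ratio in both hypoxia groups, with 95% counting intervals as bars, open triangles for lower bounds of the size where moderate hypoxia was at 0 counts, and dotted lines at 2-fold. Moderate hypoxia (blue) runs from -7.53 for APOB row 3 to 1.06 for tf, while severe hypoxia (red) lies between -1.34 for ttr and 1.41 for Apoh.

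Of the members other than AMBP and tf, apoa2, tfa and ambp held similar shares of the summed FPKM in the control and in severe hypoxia. Others differed: the severe-to-control log2 ratio was 0.79 for HP (counting interval 0.46 to 1.12) and -0.43 for alb1 (-0.53 to -0.33). Without AMBP and tf, apoa2 held 42.8% of the summed FPKM in the control and 46.9% in severe hypoxia, alb1 36.9% and 28.6%, tfa 8.48% and 8.86%, HP 4.95% and 8.83%, and ambp 2.62% and 2.87%. Relative to their control share, HP and apoh (0.748% and 2.10%) had the largest gains in share and ttr (2.52% and 1.03%) the largest loss; in percentage points alb1 and apoa2 moved most. In moderate hypoxia, where the same rows summed to 2.04 FPKM against 40.1 in the control, apoa2 held 19.5%, alb1 34.5%, tfa 17.6%, ambp 17.5% and HP 7.75%. The ratios of these genes to each other in moderate hypoxia therefore differed from those in the other groups, with log2 ratios to the control from -6.12 for apoa2 to -2.26 for ambp, whose counting intervals did not meet (-6.93 to -5.41 and -3.04 to -1.52).

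**Figure D3:**
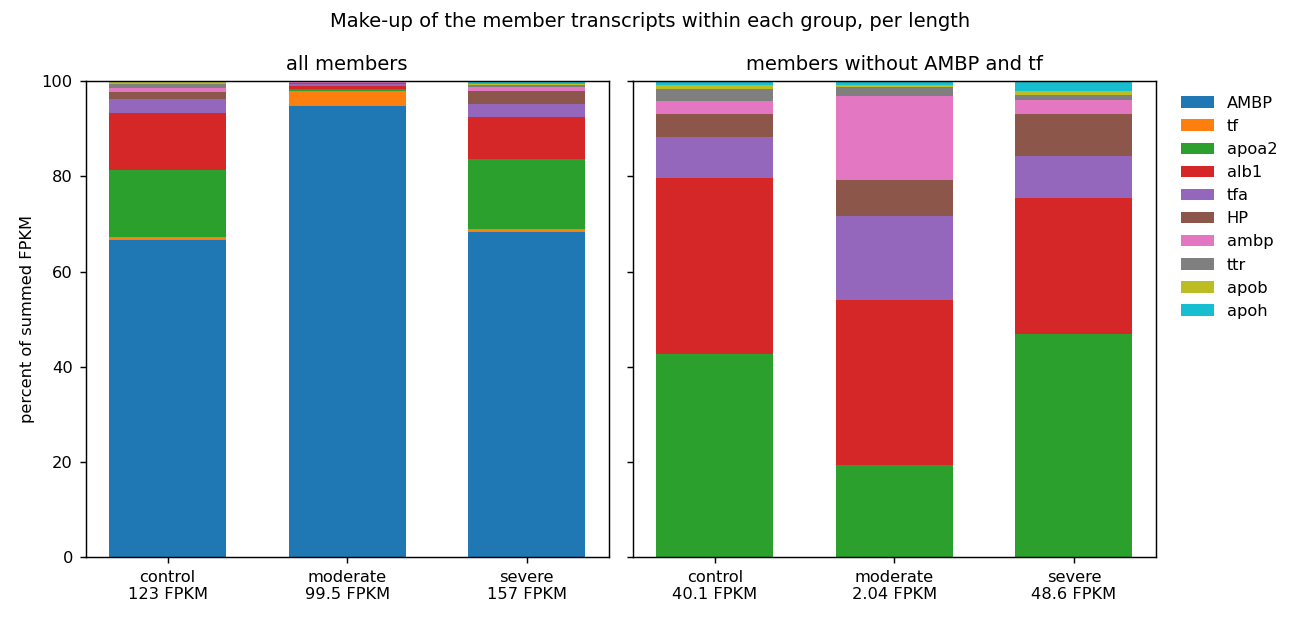
Percent of the summed FPKM of the members held by each gene in control, moderate and severe hypoxia, for all members (left) and without the rows AMBP and tf (right), with the summed FPKM under each bar. AMBP holds 66.5%, 94.7% and 68.2% on the left, and on the right apoa2 goes from 42.8% in the control to 19.5% in moderate and 46.9% in severe hypoxia.

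Other genes of liver were read from lists chosen with earlier results of these data known. For comparison with each list here and below, 14.1% of all genes analysed were at least 2-fold lower in moderate and 4.37% in severe hypoxia. At least 2-fold higher were 20.0% and 13.7%. Of 63 analysed rows of other plasma proteins, 38 were at least 2-fold lower and 9 higher in moderate hypoxia than in the control, with a median log2 ratio of -1.76 (-1.07 on library totals). In severe hypoxia 2 were lower and 10 higher, with a median of 0.15. The sums of the most abundant genes of the list were not lowest in moderate hypoxia by count, although copies of a2m and c3 diverged: a2m, the protease trap alpha-2-macroglobulin, summed to 519 counts in control, 1502 in moderate and 864 in severe hypoxia, and fetub to 313, 638 and 1053. The complement gene c3 summed to 273, 273 and 358 counts. On scaled counts the c3 sum was lowest in moderate hypoxia, at a log2 ratio to the control of -0.69 (counting interval -0.83 to -0.55). Of 12 analysed a2m rows, 4 were at least 2-fold lower and 6 higher in moderate hypoxia than in the control, with log2 ratios from -6.60 to 6.47. Of 9 analysed c3 rows, 4 were lower and 1 higher, with log2 ratios from -3.33 to 3.48. Several other genes of the list had sums with the members' pattern, and the examples given here were named after their values were seen. Hemopexin hpx, a haem carrier, was at 57.3, 0.333 and 82 counts, and the fibrinogen chain fga at 67.7, 3.00 and 83.3. The fibrinogen chain fgb was at 76.3, 4.67 and 80 counts, fgg at 126, 15 and 195, and f2 at 112, 22.3 and 131.

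Genes that act inside liver cells were mixed. Of 20 analysed rows, 5 were at least 2-fold lower and 1 higher in moderate hypoxia, with a median of -0.33 (0.36 on library totals), and 2 lower and 3 higher in severe hypoxia, with a median of 0.07. The liver fatty acid binding protein gene fabp10a was at 38 counts in control, 1.00 in moderate and 51 in severe hypoxia, 61.5-fold lower in moderate hypoxia (counting interval 20.5 to 303) and 1.10 times the control in severe hypoxia (0.858 to 1.41). It had the members' pattern and was named after its values were seen. The gluconeogenic enzyme fbp1, the most abundant of the list, was at 23616, 20268 and 16311 counts, and bhmt at 134, 112 and 129. On scaled counts their moderate-to-control log2 ratios were -0.91 (counting interval -0.93 to -0.90) and -0.95 (-1.16 to -0.73). On library totals these were -0.23 and -0.26. The bhmt rows were at -2.10 and -0.43 on scaled counts. Of the liver transcription factors 4 rows were analysed, 1 higher and 0 lower in either hypoxia group, with medians of -0.06 (0.63 on library totals) and 0.51. Several defining genes of liver were near 0 in every group. The transcription factor hnf4a was at 0, 1.33 and 3.00 counts and foxa2 at 0.666, 0.667 and 0. The vitamin D carrier gc, itself a plasma protein, was at 0.333, 0 and 1.00, and the gluconeogenic enzyme pck1 at 0, 0 and 1.33. Whether liver tissue was carried over into the dissected organ, or its own cells made these transcripts, was not tested.

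Markers of other organs moved with the members to differing degrees. Of 14 exocrine pancreas rows, 13 were at least 2-fold lower in moderate and 11 in severe hypoxia, with medians of -2.60 and -1.61, and prss1, the digestive enzyme trypsin, was at 283, 65 and 108 counts. Of 29 skeletal muscle rows, 24 were at least 2-fold lower and 2 higher in moderate hypoxia and 12 lower and 2 higher in severe hypoxia, with medians of -3.47 and -0.89. The creatine kinase gene ckm was at 1911, 343 and 1483 counts. Pancreas and muscle medians were thus below the control in both hypoxia groups, whereas that of the members was below it in moderate hypoxia and at 0.04 in severe hypoxia. Their part in the members' values was not tested.

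Head kidney cell types did not all follow. Blood-forming markers had 28 of 41 rows at least 2-fold lower in moderate hypoxia and 18 in severe hypoxia (all genes 14.1% and 4.37%). The medians were -2.05 and -0.90, many of the rows were globin rows, and no median was taken without them. Summed by gene, hba and hbb both had a moderate-to-control log2 ratio of -2.35. Of the other genes with analysed rows, alas2 was at -2.36, epor -1.47, slc4a1 -0.84, mpo -0.78, rag2 -0.72 and spi1 -0.44. Above the control were cd79b at 0.19, cd79a at 0.34, itga2b at 0.46 and rag1 at 0.70. Interrenal and chromaffin markers had 4 of 10 rows lower in moderate hypoxia, with medians of -0.73 (-0.04 on library totals) and 0.26. Macrophage markers had 6 of 22 rows at least 2-fold higher and 0 lower in moderate hypoxia, with a median of 0.35 (1.04 on library totals). Over all genes these shares were 20.0% and 14.1%. The 5 analysed kidney tubule rows had a median of 0.65, with log2 ratios from -1.29 for Cubn to 2.48 for Lrp2. The gene umod, the main secreted protein of the distal tubule, was at 529, 918 and 792 counts. Other tubule genes of the list were at or near 0: slc12a1, slc34a2 and slc5a2 at 0 in every group. The gene slc12a3 was at 0.333, 0 and 0.667 counts and pax2 at 0, 0.667 and 0. Of the intestine rows 3 of 6 were lower in moderate hypoxia, with a median of -1.01, and the fatty acid binding protein gene fabp2 was at 442, 379 and 702 counts.

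**Figure D4:**
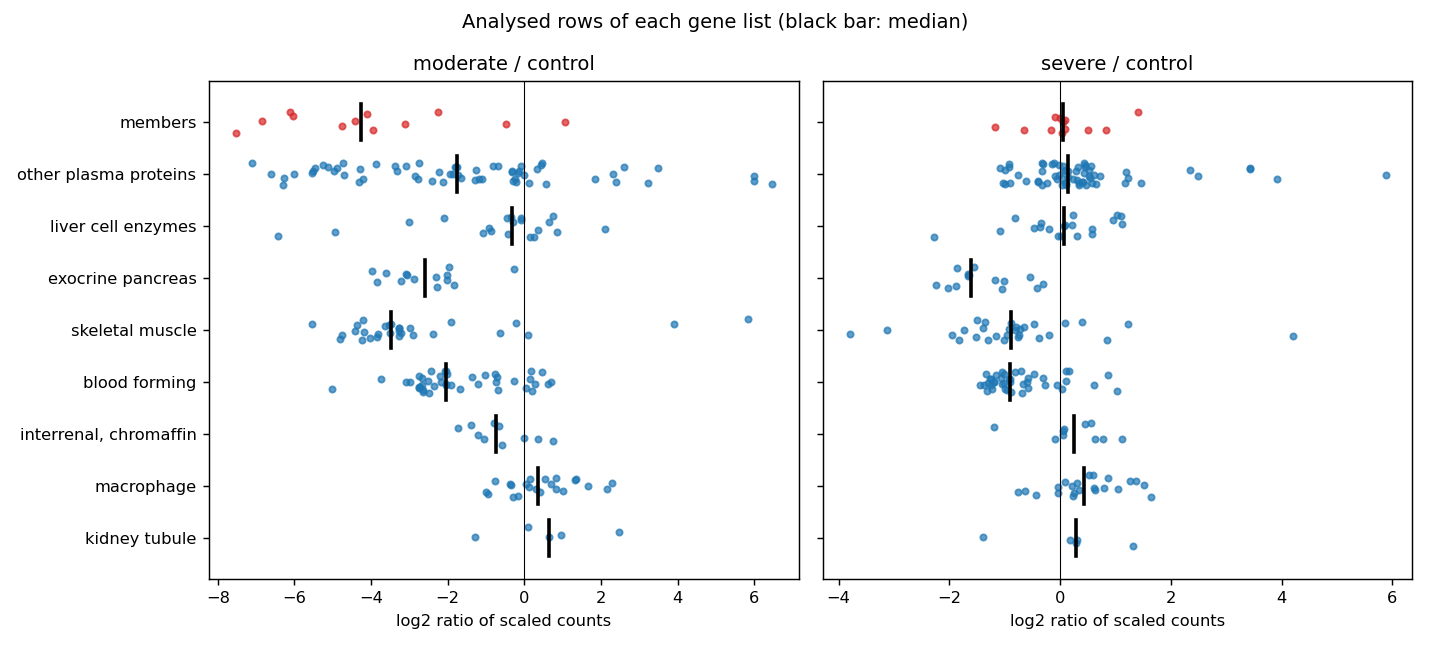
Log2 ratio of scaled counts for moderate (left) and severe hypoxia (right) against the control, with 1 point per analysed row of each gene list and a black bar at the median. The members have medians of -4.26 and 0.04, exocrine pancreas of -2.60 and -1.61 and skeletal muscle of -3.47 and -0.89.

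The genes that take up, remodel or store the cargo of these carriers were mixed. Of 51 analysed rows, 16 were at least 2-fold higher and 12 lower in moderate hypoxia than in the control, with a median of 0.34, and 8 higher and 2 lower in severe hypoxia, with a median of 0.21. The lipid exporter abca1, which loads apolipoprotein A-I with cholesterol, was at 3052 counts in control, 8889 in moderate and 5605 in severe hypoxia. The transferrin receptor row tfr1b was at 1574, 5309 and 1881 counts. Its log2 ratio in moderate hypoxia was 1.06, where that of its ligand's gene tfa was -3.96. The row tfr1a was at 2423, 2868 and 2004 counts. The ferritin heavy chain gene fth1, which stores iron, summed to 21723, 7879 and 21114 counts. It was low in moderate hypoxia, as most members were: 10 of its 13 analysed rows were at least 2-fold lower there than in the control. The 38 rows without fth1 held 16 at least 2-fold higher and 2 lower in moderate hypoxia, with a median of 0.70. The low-density lipoprotein receptor ldlr, which takes up apob-bearing particles, was at 109, 940 and 129.7 counts, with moderate hypoxia as the high group; it was named after its values were seen.

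Genes with the pattern most like the members were sought by the distance between pairs of log2 ratios (moderate and severe against control) over 3 groups, among 19788 rows with a symbol and at least 50 counts in a group. For the summed members, of which AMBP makes up most, the nearest were CCDC82, hint3, TMEM272, ATG4A, irx3, smndc1, slc51a and Dnajc30, at distances from 0.011 to 0.0288, and none belonged to a list above. For apoa2, a reference chosen after seeing the data, the nearest rows included FGA, FGB, FGG, a row whose symbol ends after antiprot, pvalb1 of muscle and SSH2, at distances from 0.992 to 1.76. Of these, the fibrinogen rows FGA, FGB and FGG belong to the list of other plasma proteins.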

How the data were processed

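Head kidney RNA was sequenced in 9 libraries, grouped by the treatment in the labels. The deposited table holds 1 FPKM and 1 estimated count per gene and group, per the file headers, and no value per library. Counts were read as means of 3 libraries, since 71.6% of non-zero values multiplied by 3 were whole within 0.002. The submitters' processing notes name HISAT2 and Bowtie2 2.2.8 without a role. Counting tool, build and annotation: not given in the sources used here. Fields (16, each 8 characters wide) were read by position, and the deposited symbols and descriptions end there.

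Count scaling used TMM, trimming 30% on M and 5% on A (numpy 2.4.6, pandas 2.3.3, scipy 1.17.1, matplotlib 3.10.9, Python 3.11.15). The computation was tested on simulated Poisson counts in which few genes changed. That simulation does not test whether most genes were alike between these groups. The 28711 genes with at least 10 counts in a group were analysed, and a difference was counted at 2-fold. A group at 0 was set to 3 counts over its 3 libraries, making the ratio a lower bound; no ratio was taken where both groups were at or under that floor. Counting intervals are Clopper-Pearson on counts summed over 3 libraries; reads without molecular identifiers are not independent molecules. Levels between genes were compared on deposited FPKM. Rows of the retrotransposon symbol Tf2-11 (3 rows) and letter suffixes of hp were not members. Genes named in the text were every member, those among the 3 most abundant symbols of a list, those a result called for, and the 8 rows nearest in pattern, except some that are not reported here; no library-level test could be run. Members and lists were chosen with earlier results of these data known. Alternatives were other scalings, minimum counts, FPKM pseudocounts, exact symbols and a gene-length correction.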

Additional observations from a re-analysis of the deposited data

How the results depend on the processing

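With 1 value per group, the spread between libraries is unknown, leaving out a replicate could not be run, and counts under about 10 carry wide counting intervals. No paired analysis was possible because the file holds no column per library. In moderate against control, the count of members at least 2-fold lower went from 10 to 5 at a minimum of 50 counts, where fewer rows were analysed. The median log2 ratio was -0.58 on FPKM with a pseudocount of 1 and -1.92 with 0.1, which pull low values together. The summed log2 ratio of -1.0 was -0.31 on library totals, -0.50 on totals without globin and mitochondrial genes, -0.67 with exact symbols and -4.88 without AMBP and tf. In severe against control, the count lower went from 1 to 0 on library totals and with exact symbols, and to 2 at a minimum of 1 count and at 1.5-fold. The summed ratio of -0.01 reversed to 0.33 on library totals, 0.22 without globin and mitochondrial genes and 0.07 with exact symbols, and was -0.16 without AMBP and tf; the cause of these shifts was not tested. In severe against moderate, the count higher went from 10 to 5 at a minimum of 50 counts, and the median was 0.85 and 2.93 on FPKM with the pseudocounts of 1 and 0.1. The summed ratio of 0.99 was 0.64 on library totals, 0.72 without globin and mitochondrial genes, 0.74 with exact symbols and 4.72 without AMBP and tf. The members' share of counts was 0.0262%, 0.0185% and 0.0304% (control, moderate, severe) without globin and mitochondrial genes, against 0.0214%, 0.0173% and 0.0269%. By count AMBP held 69.9% of the severe sum. Without it the highest symbol stem held 41.8% of the summed FPKM in the control (apoa2), 68.0% in moderate and 45.7% in severe hypoxia (apoa2). The moderate value counts the separate genes tf and tfa together, at 3.22 FPKM for tf and 0.359 for tfa, the transferrin row. In 46 other combinations of result and alternative the value stayed within 1.5 times (counts) or within the counting interval of the sum or the middle rows; the median then ran from -4.38 to -3.57 for moderate against control, from 0.01 to 0.38 for severe against control and from 4.25 to 4.60 for severe against moderate. The alternatives without AMBP and tf, and the median over every row above the floor, were chosen after seeing the data.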

Other observations

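The table also holds 13 rows described as apolipoprotein with no symbol, 7 of them analysed. Of these 7, 4 were at least 2-fold lower in moderate hypoxia than in the control, against 14.1% of all genes analysed. At least 2-fold higher was 1, against 20.0%. The lowest of them relative to the control was at 166 counts in control, 2.33 in moderate and 199 in severe hypoxia. Its moderate-to-control log2 ratio was -6.85 (counting interval -8.17 to -5.79). Others were at 114, 16.7 and 113 counts and at 39.6, 6.33 and 50.7. Another, at 128, 133 and 136 counts, was near level by count, with a log2 ratio of -0.63 on scaled counts in moderate hypoxia. The row above the control was at 3.00, 35.3 and 19.3 counts. Which apolipoproteins these rows encode is not given by the table, and they were chosen after seeing it. Apolipoprotein E, which macrophages also make in mammals, summed over rows of apoe and apoeb to 277 counts in control, 385 in moderate and 213 in severe hypoxia, with moderate hypoxia as the highest group by count and a log2 ratio to the control of -0.22 on scaled counts.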
